A study of Macaca fascicularis with 20 samples.

Results

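The genes described here encode pre-mRNA splicing factors of 8 families: the SR proteins (SRSF genes), the SF3A and SF3B subunits, the U2AF proteins, the SNRP proteins, the PRPF proteins, the hnRNP proteins, the RBM proteins, and the paired proteins NONO and SFPQ. They were chosen by gene symbol, with earlier results of these data known. In the RefSeq gene table of the cynomolgus macaque 104 symbols belonged to these families. Through the transcript accessions of the array's probes 76 of them could be measured, by 135 probes, out of 12530 genes matched in all. The 76 were 7 SR proteins, 7 SF3A and SF3B subunits, 3 U2AF genes, 7 SNRP genes, 11 PRPF genes, 16 hnRNP genes, 24 RBM genes and NONO. Each gene was represented by its probe of highest mean signal. The other 28 symbols, among them SFPQ, SF3B1, SRSF1, SRSF2, SRSF3 and HNRNPA2B1, were not analysed here.

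Introns are removed from pre-mRNA by the spliceosome, a machine of small nuclear ribonucleoproteins (snRNPs) that assembles anew on every intron. U2AF and the SF3A and SF3B complexes select the branch point and the downstream splice site, the SNRP genes encode core and specific proteins of the snRNPs, and several PRPF proteins belong to the U4/U6.U5 particle that forms the catalytic spliceosome. SR proteins mostly promote the use of exons, hnRNPs often oppose it, and the RBM genes form a mixed group of RNA-binding proteins that also act in other steps of RNA metabolism.

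The cells were natural killer (NK) cells and, for comparison, B cells, both sorted after thawing from frozen, unstimulated spleen cells of cynomolgus macaques (Macaca fascicularis), an outbred species with no transgene or treatment in any group. Live NK cells carried CD45, NKG2A and CD8a, lacked CD3, CD14, CD20 and HLA-DR, and were divided by CD27, a costimulatory receptor, and CD11b, an integrin chain. This gave 4 NK subsets, namely CD27lo CD11blo (double-low, 4 arrays), CD27+ CD11blo (CD27 single positive, 4 arrays), CD27+ CD11b+ (double positive, 5 arrays) and CD27lo CD11b+ (CD11b single positive, 5 arrays). B cells, gated as CD20+ HLA-DR+ without NKG2A and CD8a, gave 2 arrays. Replicate 1 of each NK subset came from a male of 4 years, replicate 2 from a male of unstated age, and replicate 3 from males labelled as 9 years in double-low, 10 in CD27 single-positive, 12 in double-positive and 11 in CD11b single-positive cells. Replicate 4 of the double-low and CD27 single-positive cells and replicate 5 of both CD11b+ subsets came from females of 18 years, replicate 4 of both CD11b+ subsets from males of 5 years, and the B cells from females of 5 and 18 years. The labels call the NK samples biological replicates but do not say which samples share an animal, so the p-values measure the spread between these samples.

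Each value below is a scaled level: the log2 processed signal of the probe minus the 75th percentile of its array, so that 0 stands for that percentile. Levels of different probes cannot be compared with each other. The 75th percentile lay between 180 and 1897 units of intensity, with the double-positive replicate 4 (180) and the double-low replicate 4 (199.6) as the dimmest arrays. Precision is limited by how few arrays there are. The arrays stood on 3 slides. Replicates 1 and 2 of all NK subsets were on the first, replicate 3 of all NK subsets, replicate 4 of both CD11blo subsets and the B cells on the second, and replicates 4 and 5 of the CD11b+ subsets on the third. Of 10 NK markers 8 were measured, and their summed level, relative to the 75th percentile of the array, was 44.6 to 262 in NK arrays and 5.27 to 5.41 in B cell arrays. The 9 measured B cell markers of 12 summed to 1.36 to 10.1 in NK arrays and 44.8 to 50.1 in B cell arrays. Sums of 5 erythroid markers of 9 ranged over 7.91 to 9.33 in double-low cells, 4.04 to 6.95 in CD27 single positives, 4.04 to 10.5 in double positives and 3.48 to 10.6 in CD11b single positives, and the corresponding sums of 5 platelet markers of 7 were 8.85 to 13.5, 5.35 to 7.05, 5.14 to 11.9 and 5.75 to 15.1. The 7 measured neutrophil markers of 10 summed to 5.42 to 7.63, 2.63 to 5.11, 2.98 to 6.36 and 2.49 to 9.60 in the same order, the 10 measured monocyte and macrophage markers of 13 to 9.76 to 12.1, 6.02 to 9.89, 4.97 to 11.5 and 8.27 to 10.5, and the 5 measured T cell markers of 10 to 5.34 to 11.4, 8.75 to 14.4, 6.72 to 11.9 and 5.41 to 13.6. Their part in the results was not tested.

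Splicing factor transcripts were widely detected. All 76 genes passed the filter on dim probes, and 61 of them (80.3%) were well above background on every one of the 20 arrays, against 61.8% of all genes tested. The dimmest were SRSF12, well above background on 11 of 18 NK arrays, and RBM12B, on 14. The spread between arrays of 1 subset was similar to that of other genes, with a median SD of 0.92 over the 76 genes and 0.90 over all genes. RBM42 varied least, with a pooled SD of 0.41, and RBM12B most, with 2.47. Whether a lower level reflects fewer cells of a type or less RNA per cell cannot be told apart in such bulk samples.

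**Figure D1:**
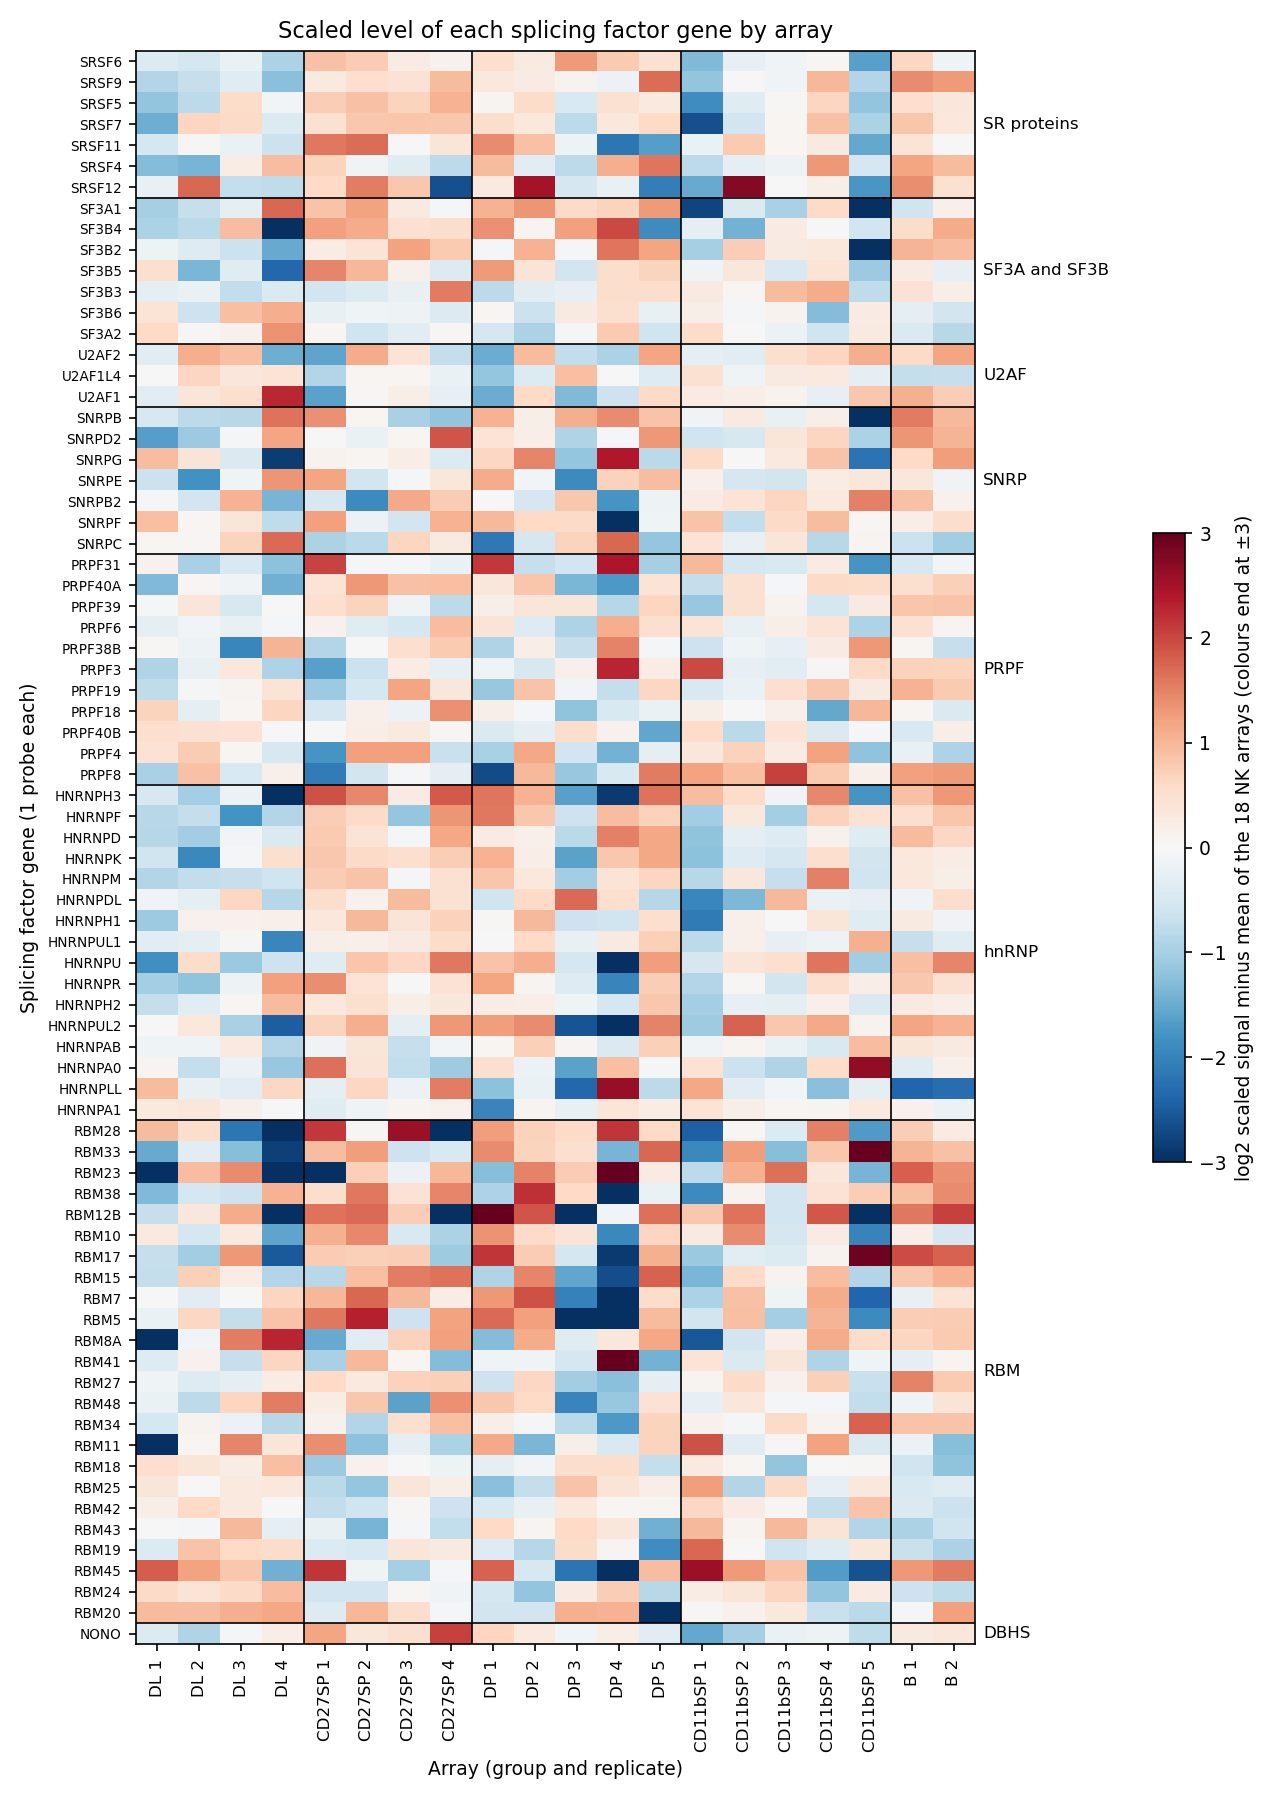
Scaled level of each of the 76 splicing factor genes (rows, grouped by family, within a family ordered by the CD27 difference) on each of the 20 arrays (columns), as a log2 difference from the gene's mean over the 18 NK arrays; colours end at a difference of 3 in either direction. Against their mean over the 4 subsets, 46 to 52 of the 76 genes were higher on each CD27 single-positive array and 24 to 39 on each double-low array. The other 2 subsets overlapped both ranges, with 28 to 51 on double-positive and 32 to 54 on CD11b single-positive arrays.

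The CD27+ subsets were compared with the CD27lo subsets with CD11b balanced, to ask how the transcripts differed with CD27. No splicing factor gene passed an adjusted p of 0.05, and no gene of the 12192 tested did (0%). At an unadjusted p under 0.05 were 15 splicing factor genes (19.7%, against 22.2% of all genes). The fit named 13 splicing factor genes with higher levels in CD27+ cells (17.1% of the 76, where 6.41% of all genes were named in that direction) and 2 with lower levels (2.63%, against 15.8%). The 13 were SRSF5, SRSF6, SRSF7, SRSF9, SF3A1, SF3B2, SF3B4, SF3B5, HNRNPD, HNRNPF, HNRNPK, HNRNPM and NONO, and the 2 were U2AF1 and RBM42. The median difference was a log2 of 0.26 over the 76 genes and -0.37 over all genes tested, and 59 of the 76 lay above the median of all genes (by construction 50% of all genes do). Quantile normalization moved the median of all genes to -0.13 and that of the 76 to 0.33. The median of the 76 minus that of all genes was thereby reduced from 0.62 to 0.46. With arrays weighted by their quality 17 of the 76 passed an adjusted p of 0.05 (22.4%, against 32.6% of all genes), of which 14 were higher in CD27+ cells (18.4%, against 6.56%) and 3 lower (3.95%, against 26%).

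The SR proteins had positive differences as a family: all 7 were positive, 4 of them at an unadjusted p under 0.05, with a median of 0.87. Of all 12192 genes tested 4138 were positive, and 6.41% of all genes were positive at an unadjusted p under 0.05. One of the 7 was negative with the normexp background correction. SRSF6, an SR protein that binds exonic enhancers, stood at 4.53, 4.42, 3.89 and 3.78 in CD27 single positives, replicates 1 to 4. Double positives had 4.14, 3.92, 4.92, 4.44 and 4.11 in replicates 1 to 5. In double-low cells the level was 3.24, 3.12, 3.44 and 2.70, and in CD11b single positives 2.32, 3.39, 3.54, 3.69 and 2.02. Every one of the 9 CD27+ arrays was therefore higher than every one of the 9 CD27lo arrays, by a narrow margin. Among all genes 0.0164% were separated in this way with higher levels in CD27+ cells, and SRSF6 was the 1 splicing factor gene (1.32%) that was. With quantile normalization and in the deposited log2 values the groups overlapped, the lowest CD27+ array lying at 13.44 and the highest CD27lo array at 13.65 after the former. The difference in SRSF6 was a log2 of 1.17 ± 0.26 (SE; 9 arrays against 9; unadjusted p = 0.000253, limma adjusted p = 0.196).

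SRSF9 ranged over 1.01 to 2.86 on the CD27+ arrays with a median of 1.499, and over -0.07 to 2.18 on the CD27lo arrays with a median of 0.49. Of the CD27lo arrays the CD11b single-positive replicate 4 (2.18) lay among the highest CD27+ arrays, and all 4 double-low arrays lay below every CD27+ array. Its difference was 1.01 ± 0.31 (adjusted p = 0.196). SRSF5 had 0.90 to 2.40 (median 1.89) in CD27+ and -0.52 to 1.99 (median 0.98) in CD27lo cells, with a difference of 0.97 ± 0.33 (adjusted p = 0.198). For SRSF7, a partner of the mRNA export machinery, the ranges were 1.65 to 3.28 and -0.20 to 3.31, so that the groups overlapped over most of their range, and the difference was 0.87 ± 0.40 (adjusted p = 0.222). SRSF4, SRSF11 and SRSF12 had differences of 0.42, 0.52 and 0.07.

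Subunits of the SF3A and SF3B complexes, which belong to the U2 snRNP and hold the branch point, were divided. SF3A1, SF3B2, SF3B4 and SF3B5 had positive differences, SF3B3 one of 0.05, and SF3A2 and SF3B6 negative ones of -0.50 and -0.27. SF3A1 lay between -0.15 and 1.23 on CD27+ arrays (median 0.76) and between -3.48 and 1.61 on CD27lo arrays (median -0.80). The highest of all its values was that of the double-low replicate 4, a dim array, and the 2 lowest were CD11b single-positive replicates 5 and 1. The difference was 1.502 ± 0.49 (adjusted p = 0.198). SF3B2 and SF3B4 both differed by 1.40 (± 0.52 and ± 0.53; adjusted p = 0.198 and 0.201) and SF3B5, a small subunit, by 1.04 ± 0.38 (adjusted p = 0.198). For each of these 3 genes 5 of the 9 CD27+ arrays lay above all CD27lo arrays.

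All 3 U2AF genes had negative differences, as did 8054 of the 12192 genes tested. U2AF1, the small subunit that contacts the AG at the end of the intron, was at -0.22 to 1.99 in CD27+ cells (median 1.14) and at 1.08 to 3.66 in CD27lo cells (median 1.63). The groups overlapped, with 4 CD27+ arrays below every CD27lo array, and the value of 3.66 came from the dim double-low replicate 4. The difference was -0.89 ± 0.39 (adjusted p = 0.216) for the probe used and 0.06 for a second probe of the gene. U2AF1L4, a paralog of U2AF1, differed by -0.46 ± 0.28 and U2AF2, the large subunit, which binds the polypyrimidine tract, by -0.39 ± 0.48 (adjusted p = 0.283 and 0.582). Relative to the median of all genes the difference of U2AF1 was -0.52, that of U2AF1L4 -0.10 and that of U2AF2 -0.02.

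Among the hnRNP genes 14 of 16 had positive differences (against 4138 of all 12192), with a median of 0.58. Of the 14, 4 had an unadjusted p under 0.05, against 6.41% of all genes in that direction. HNRNPD, also called AUF1, which binds AU-rich elements of mRNAs, ranged over 2.13 to 4.46 in CD27+ cells (median 3.33) and over 1.74 to 3.07 in CD27lo cells (median 2.55). Of the CD27+ arrays 7 lay above all CD27lo arrays, and the double-positive replicate 3 (2.13) was among the lowest arrays of either group. The difference was 1.02 ± 0.31 (adjusted p = 0.196), and the other 3 probes of the gene gave 0.88 to 1.45. HNRNPF differed by 1.11 ± 0.38 (adjusted p = 0.198), although its second probe gave -0.03. HNRNPK, a poly(C)-binding protein, differed by 0.96 ± 0.38 and HNRNPM by 0.76 ± 0.32 (adjusted p = 0.206 and 0.211).

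The SNRP genes, which include the Sm ring proteins, had 4 positive and 3 negative differences between -0.54 (SNRPC) and 0.77 (SNRPB), and the 11 PRPF genes had 5 positive and 6 negative ones. PRPF8, the large scaffold protein at the catalytic centre, had the most negative difference of the 76 genes, -1.004 ± 0.51 (adjusted p = 0.238). Its range was -4.76 to -0.51 in CD27+ cells and -3.05 to -0.02 in CD27lo cells. The 24 RBM genes had 13 positive and 11 negative differences, with a median of 0.10. Of these RBM42 (-0.50 ± 0.23) and RBM24 (-0.65 ± 0.33) were the negative ones of lowest p (adjusted p = 0.219 and 0.237), and both ranges overlapped.

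NONO, a nuclear protein of paraspeckles that acts in transcription and splicing, stood at 3.99, 3.15, 3.30 and 4.86 in CD27 single positives, replicates 1 to 4. In double positives it was at 3.45, 3.10, 2.74, 3.02 and 2.50, in double-low cells at 2.40, 1.91, 2.77 and 3.02, and in CD11b single positives at 1.28, 1.82, 2.63, 2.65 and 2.05. The 2 CD27+ subsets thus held the 6 highest of the 18 levels, while double-positive replicates 3, 4 and 5 overlapped the CD27lo arrays. The CD27 difference was 1.09 ± 0.28 (unadjusted p = 0.000979, limma adjusted p = 0.196), and a second probe gave 0.94.

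**Figure D2:**
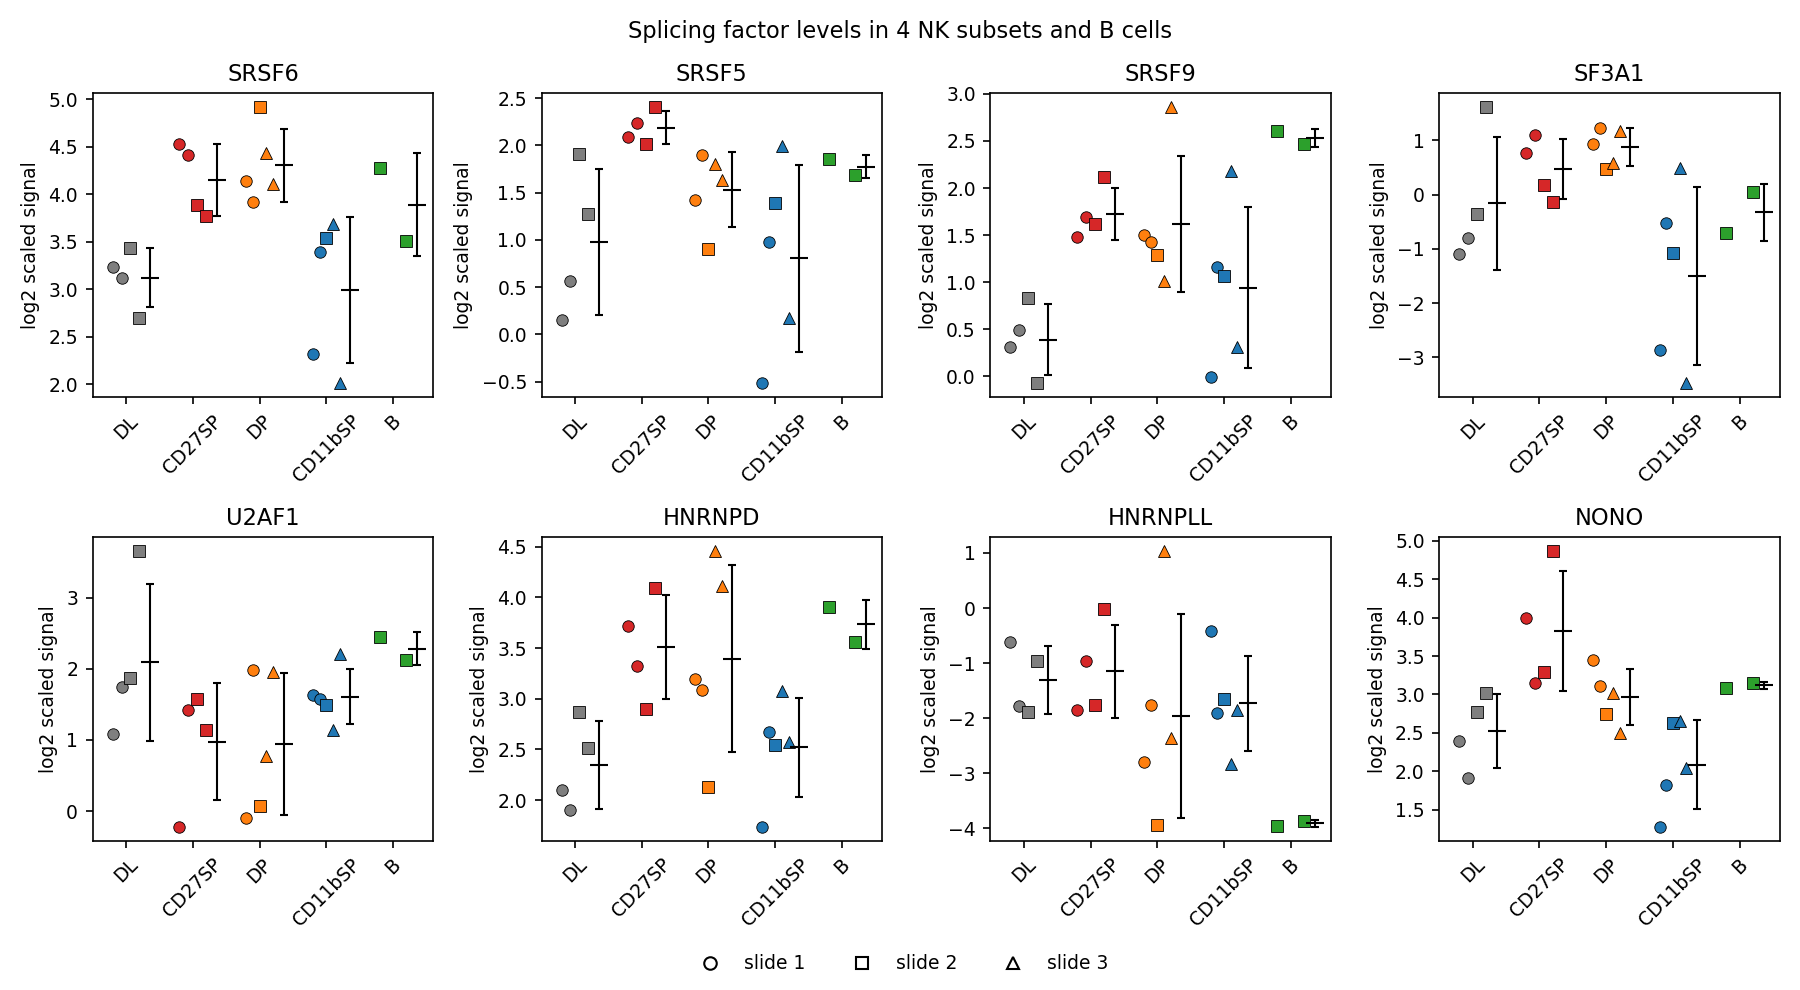
Scaled level (log2) of 8 splicing factor genes on every array of the 4 NK subsets and B cells; points are arrays, with the symbol giving the slide, and the bar beside each group is the mean ± SD. The 9 CD27+ values of SRSF6 lie at 3.78 or more and the 9 CD27lo values at 3.69 or less, and the 2 B cell values of HNRNPLL lie at -3.95 and -3.86.

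The calls and the median of the CD27 difference were not alike on the slides, which held different numbers of arrays. On the first slide alone, with 4 CD27+ and 4 CD27lo arrays, 15 splicing factor genes passed an adjusted p of 0.05, when 11.4% of all genes passed. Of these 14 were higher in CD27+ cells (18.4% of the 76, against 4.90% of all genes), and 1, RBM42, was lower (1.32%, against 6.46%). The 14 were SRSF5, SRSF6, SRSF11, SF3A1, SF3B4, SNRPD2, HNRNPD, HNRNPF, HNRNPH3, HNRNPK, HNRNPM, HNRNPR, RBM17 and NONO, with SF3A1 at 2.33 ± 0.50, NONO at 1.57 ± 0.31, SRSF5 at 1.61 ± 0.38 and SRSF6 at 1.24 ± 0.29 (limma adjusted p = 0.0487 each). The median over the 76 genes was 0.57 there, and -0.60 over all genes. On the second slide, with 3 CD27+ and 3 CD27lo arrays, none passed (0% of all genes), 3 splicing factor genes had an unadjusted p under 0.05 (3.95%, against 2.71%), and the median was -0.003, against -0.13 over all genes. On the third slide, where double positives met CD11b single positives, the median was 0.05 and that of all genes 0.02.

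SRSF6 had a difference of 1.24 on the first slide, 1.07 ± 0.40 on the second and 1.42 on the third. SRSF9 (1.04, 0.86 ± 0.475 and 0.69) and SF3B4 (1.82, 1.31 ± 1.26 and 0.33) were positive on each. For SF3B4 the dim double-low replicate 4 (-3.70) was the lowest array of the second slide. On the third slide its double positives stood at 1.51 (replicate 4, the dimmest array) and -2.36 (replicate 5). The CD11b single positives there stood at -0.49 and -1.035. SRSF5 was at 0.06 ± 0.42 on the second slide. SRSF4 was at 1.25 on the first and -0.90 on the second slide and HNRNPK at 1.69 and -0.36. Tested directly, the difference between the first and second slide had an unadjusted p under 0.05 for 8 of the 76 genes. That share was below the 12.1% of all genes. None passed an adjusted p of 0.05 (0% of all genes), with a limma adjusted p of 0.403 for SRSF4 and HNRNPK. The splicing factor genes were thus not named more often than other genes as differing between these slides. In all, 28 genes were positive on both slides, 18 negative on both, 20 positive on the first only and 10 positive on the second only. The slides also differ in the animals. The NK arrays were split into 5 sets: replicates 1, replicates 2, replicates 3 (males labelled 9 to 12 years, so not shown to be 1 animal), the females of 18 years, and the males of 5 years, which gave double positives against CD11b single positives only. In all 5 sets 12 genes were positive (15.8%, against 3.35% of all genes), namely HNRNPDL, HNRNPF, HNRNPUL1, NONO, PRPF31, RBM28, SF3A1, SF3B2, SF3B4, SF3B5, SNRPB and SRSF6, and RBM43 was positive in none.

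**Figure D3:**
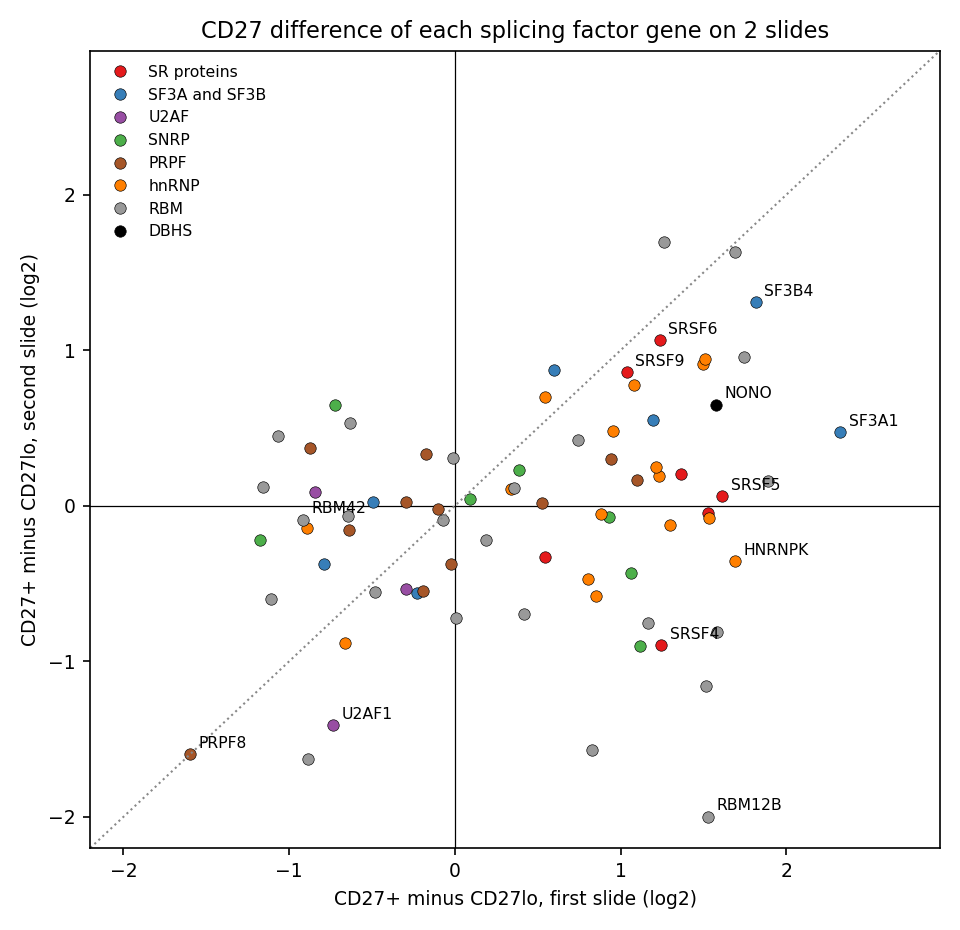
CD27+ minus CD27lo difference (log2) of each of the 76 splicing factor genes on the first slide (horizontal; 4 arrays against 4) and the second slide (vertical; 3 against 3), coloured by family; the dotted line marks equal values. SRSF6 lies near the line at 1.24 and 1.07, SRSF5 at 1.61 and 0.06, and SRSF4 at 1.25 and -0.90.

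Signal also followed CD27 on the first slide: the lowest 75th percentile of its CD27+ arrays was 1313.5 units and the highest of its CD27lo arrays 1060.6, so signal and CD27 cannot be told apart there. Over the arrays, the median of the 76 genes minus that of all genes, each gene centred on its mean over the NK subsets, was 0.41 ± 0.23 (SD) in CD27 single positives, 0.30 ± 0.53 in double positives, -0.11 ± 0.46 in CD11b single positives and -0.38 ± 0.19 in double-low cells. Among CD27lo arrays CD11b single-positive replicate 4 stood apart at 0.66, and among CD27+ arrays double-positive replicate 3 at -0.54. The former had 1251.4 units of signal, the most of the CD11b single positives after replicate 3, and the latter 923.0. Other arrays differed in this: CD11b single-positive replicate 3 (1307.9 units) was at -0.15 and double-low replicate 3 (1395.9 units) at -0.19. CD27 single-positive replicate 4 (817.9 units) was at 0.45 and double-positive replicate 4 (180 units) at 0.17. Both B cell arrays (0.75 and 0.66) were near the top. The part of signal in the CD27 difference was not tested.

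**Figure D4:**
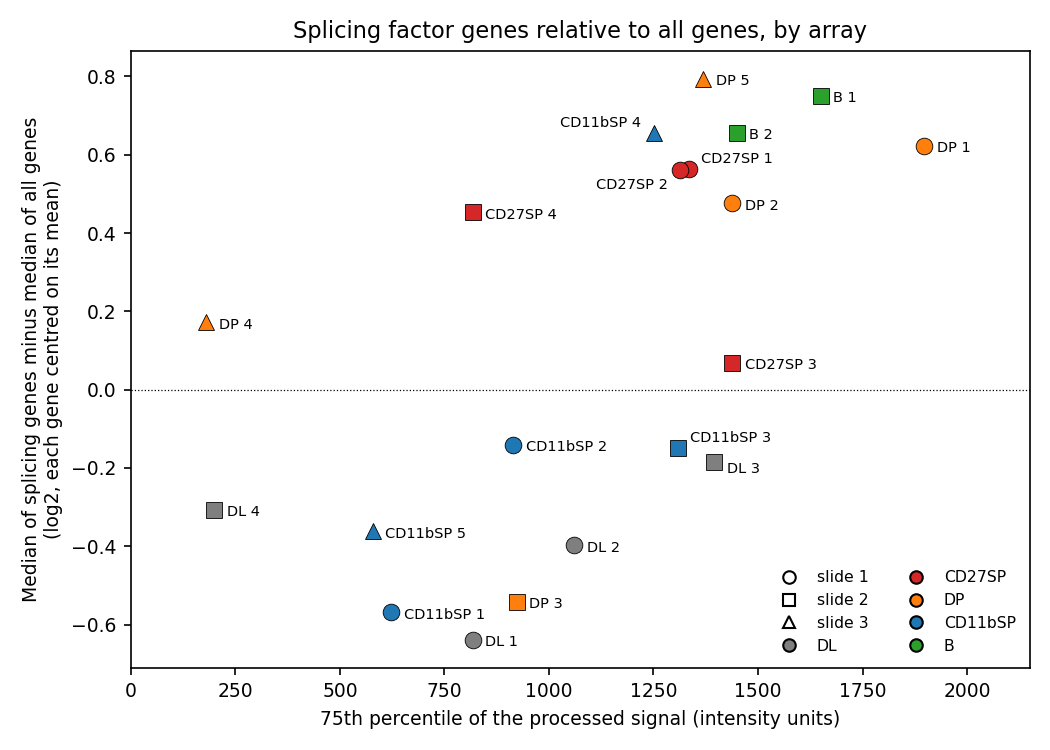
Median of the 76 splicing factor genes minus the median of all genes tested (log2, each gene centred on its mean over the 4 NK subsets) against the 75th percentile of the processed signal (intensity units), for the 20 arrays; colours are groups and symbols slides. CD27 single positives lie between 0.07 and 0.56 and double-low cells between -0.64 and -0.19. Double positives span -0.54 to 0.79 and CD11b single positives -0.57 to 0.66.

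The CD11b single positives were also set against the CD27 single positives, the 2 ends of the sort; this comparison shares its arrays with the one on CD27. No gene passed an adjusted p of 0.05 (0% of 12192). At an unadjusted p under 0.05 were 8 splicing factor genes (10.5%, against 5.28% of all genes): 6 lower in CD11b single positives (7.89%, against 2.90% of all genes), which were NONO, SRSF5, SRSF6, SRSF7, SF3A1 and HNRNPD, and 2 higher (2.63%, against 2.38%), PRPF8 and RBM42. The levels of NONO, SRSF6, SRSF5, SF3B4 and HNRNPH2 on all 5 arrays of CD11b single positives lay below those on all 4 of CD27 single positives (6.58% of the 76, against 1.18% of all genes). Only NONO and SF3B4 of these remained separated with quantile normalization and in the deposited values. NONO differed by -1.74 ± 0.40 (adjusted p = 0.756) and SF3A1 by -1.96 ± 0.69, SRSF5 by -1.38 ± 0.46, SRSF7 by -1.37 ± 0.57 and SRSF6 by -1.16 ± 0.37 (adjusted p = 0.812 each). SRSF5 stood at 2.09, 2.24, 2.02 and 2.40 in CD27 single positives, a tight group, and at -0.52, 0.98, 1.39, 1.99 and 0.17 in CD11b single positives.

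Within the first and the second slide NONO differed by -2.02 and -1.46, SRSF5 by -1.93 and -0.82 and SRSF6 by -1.62 and -0.29, and no gene passed on either.

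PRPF8 had its higher levels in CD11b single positives. Its level was -4.17, -2.64, -2.11 and -2.35 in CD27 single positives and -0.88, -1.16, -0.02, -1.28 and -1.93 in CD11b single positives. The 2 groups did not overlap, which held for 1.32% of the 76 genes and 0.927% of all genes in this direction and under each of the 4 scalings examined. The difference was 1.76 ± 0.72 (adjusted p = 0.812), and 2.38 and 2.21 within the first and the second slide. PRPF3, a protein of the U4/U6 snRNP, differed by 0.98 ± 0.58, RBM43 by 0.90 ± 0.51, RBM42 by 0.69 ± 0.32 and RBM25 by 0.56 ± 0.48 (adjusted p = 0.812 each). The difference of PRPF3 turned between slides, with 2.01 on the first and -0.31 on the second, while RBM43, RBM42 and RBM25 were positive on both. Over the 76 genes the median was -0.24, and 0.19 over all genes. SR proteins had a median of -1.03, SF3A and SF3B subunits -0.73, hnRNPs -0.57 and U2AF genes 0.51.

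The CD11b+ subsets were then set against the CD11blo subsets with CD27 balanced. No splicing factor gene passed an adjusted p of 0.05, and 0.0164% of all genes did. At an unadjusted p under 0.05 were PRPF3, higher in CD11b+ cells by 0.91 ± 0.41, and NONO, lower by a log2 difference of -0.65 ± 0.28 (adjusted p = 0.946 for both), or 2.63% of the 76 genes, against 5.04% of all genes (1.32% in each direction, against 1.83% higher and 3.21% lower). PRPF3 was highest on double-positive replicate 4 (2.38) and CD11b single-positive replicate 1 (2.09), and its other CD11b+ arrays lay between -0.37 and 0.67. The third slide held CD11b+ arrays only, so CD11b and slide cannot be fully told apart. With the slide block in the limma fit neither PRPF3 nor NONO had an unadjusted p under 0.05. On the second slide alone the difference of PRPF3 was 0.07 and that of NONO -0.80. The next in p were RBM33 (1.08 ± 0.61), RBM23 (1.49 ± 0.87), HNRNPF (0.62 ± 0.38) and PRPF8 (0.76 ± 0.51) with positive differences, and PRPF40B (-0.43 ± 0.29), RBM27 (-0.40 ± 0.29) and the regulators of alternative exons RBM20 (-1.17 ± 0.63) and RBM5 (-1.14 ± 0.75) with negative ones (adjusted p = 0.946 each). Of these, HNRNPF (-0.20), RBM20 (0.012) and PRPF40B (0.28) had the opposite sign on the second slide and RBM27 (0.068) on the first. The median over the 76 genes was 0.01 and over all genes -0.13.

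A test for any difference among the 4 subsets gave no splicing factor gene an adjusted p under 0.05 (0% of all genes). It gave 7 an unadjusted p under 0.05 (9.21%, against 8.76% of all genes): SRSF6, NONO, SF3A1, SRSF9, HNRNPF, HNRNPD and SRSF5 (limma adjusted p = 0.559 each). The interaction of CD27 and CD11b had an unadjusted p under 0.05 for 3 of the 76 genes (3.95%, against 1.44% of all genes; none adjusted, 0%), and the smallest adjusted p was 1.

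NK cells were set against B cells to compare the lineages, with the mean of the 4 NK subset means against 2 B cell arrays. No splicing factor gene passed an adjusted p of 0.05, where 2.92% of the 12388 genes tested did. At an unadjusted p under 0.05 were 3 genes (3.95%, against 22.7%), 1 with a higher level in NK cells (1.32% of the 76, against 17.5% of all genes) and 2 with a lower one (2.63%, against 5.2%). The median difference was -0.34 over the 76 genes and 0.36 over all genes, 53 genes were negative, and 14 lay above the median of all genes. It was -0.37 for the 76 and 0.18 for all genes after quantile normalization. Both B cell arrays lay on the second slide, and the B cells came from females only. Within that slide no splicing factor gene passed either, against 15.5% of all genes, and HNRNPLL and SRSF9 differed by 1.94 and -1.38. With arrays weighted by their quality 18 of the 76 passed, 6 higher in NK cells (7.89%, against 33% of all genes) and 12 lower (15.8%, against 12.8%).

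HNRNPLL, which directs exon skipping in the CD45 transcript of activated lymphocytes, was the gene with the higher level. B cells stood at -3.95 and -3.86, and the 18 NK arrays ranged from -3.94 to 1.04 with a median of -1.78. Of the NK arrays 17 were above both B cell arrays, and double-positive replicate 3 (-3.94) lay between them. The difference was a log2 of 2.37 ± 0.82 (SE; 18 arrays against 2; limma adjusted p = 0.109), and the second probe gave 2.04.

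For the probes used, all 7 SR proteins had negative differences under each of the 5 scalings examined, with a median of -0.55. With the main scaling 5065 of all 12388 genes tested were negative. The probes of SRSF12, a dim gene, were opposed, with -0.92 for the probe used and 1.07 for a second probe. SRSF11 turned positive with array weights and with the replicate block. SRSF9 stood at 2.60 and 2.46 in B cells and ranged from -0.07 to 2.86 in NK cells, with a median of 1.23. On 17 of the 18 NK arrays it was below both B cell arrays, the exception being double-positive replicate 5 (2.86). The difference was -1.36 ± 0.48 (adjusted p = 0.112), and without CD11b single-positive replicate 4 it passed the threshold, as 1 of the 76 genes, while 5.80% of all genes did. SRSF11 had the smallest difference of the family (-0.17 ± 0.71; adjusted p = 0.883), and SRSF4 was at -1.09 ± 0.64 (adjusted p = 0.299).

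RBM27 and PRPF39, a U1-associated protein, were lower on all 18 NK arrays than on both B cell arrays (2.63% of the 76, against 3.19% of all genes), and none was higher on all (against 7.44%). For RBM27 the NK range was -2.04 to -0.06 and the B cell levels 0.70 and 0.002, with a difference of -1.11 ± 0.44 (adjusted p = 0.152). For PRPF39 the NK range was -1.78 to 0.02 and the B cell levels 0.18 and 0.20, with a difference of -0.84 ± 0.46 (adjusted p = 0.274). Both separations were narrow. That of PRPF39 was lost with the normexp background correction.

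In the other families the most positive and most negative differences were 0.65 ± 0.42 (SF3A2) and -0.97 ± 0.79 (SF3B2) for SF3A and SF3B, 0.86 ± 0.72 (SNRPC, a U1 snRNP protein) and -1.27 ± 0.79 (SNRPB, a Sm protein) for SNRP, and 0.59 ± 0.71 (PRPF4) and -1.29 ± 0.78 (PRPF8) for PRPF. The hnRNP of most negative difference was HNRNPU (-1.19 ± 0.86), and the RBM genes ran from 0.92 ± 0.46 (RBM18) to -1.89 ± 1.04 (RBM17). Among these 9 genes the adjusted p ranged from 0.239 (RBM18) to 0.591 (PRPF4). U2AF1L4 was at 0.71 ± 0.42, with 16 of 18 NK arrays above both B cell arrays, and U2AF1 at -0.88 ± 0.60, with 16 of 18 below both (adjusted p = 0.306 and 0.354). U2AF2 was at -0.89 ± 0.74 (adjusted p = 0.441), with 1 of its B cell levels inside the NK range and 1 just above it. NONO differed by -0.27 ± 0.43 (adjusted p = 0.688), and both its B cell levels lay inside the NK range.

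**Figure D5:**
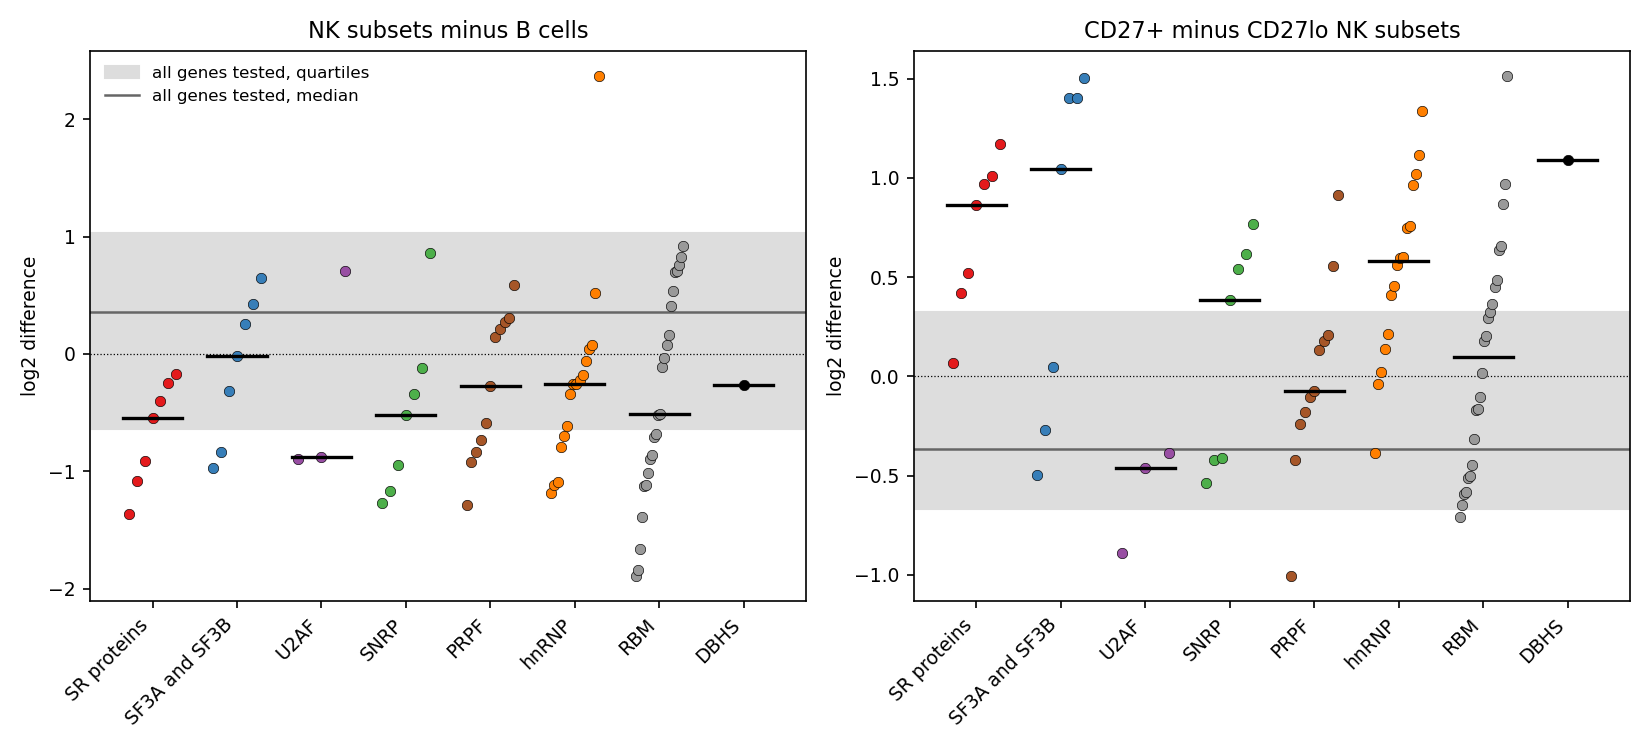
Difference (log2) of each of the 76 splicing factor genes, by family, between NK subsets and B cells (left) and between CD27+ and CD27lo NK subsets (right); points are genes, short bars family medians, the grey line the median and the grey band the quartiles of all genes tested. SR proteins have a median of -0.55 on the left and 0.87 on the right, and the medians of all genes are 0.36 and -0.37.

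Other splicing genes were taken from 7 lists with 108 measured genes. None passed an adjusted p of 0.05 in any of the 5 comparisons. In the CD27 comparison their median was 0.41, 94 of 108 lay above the median of all genes, and 15 had an unadjusted p under 0.05 with higher levels in CD27+ cells (13.9%, against 6.41% of all genes) and 2 with lower (1.85%, against 15.8%). Of the 24 measured regulators of alternative splicing 8 were among the 15 (33.3%), with a median of 0.73 for the list. They included MBNL3 (2.10 ± 0.60) and MBNL1 (0.83 ± 0.30), of the muscleblind family, the RNA-binding proteins PCBP1 (1.12 ± 0.35) and MATR3 (0.87 ± 0.32), and the nuclear speckle protein SON (1.04 ± 0.34), at adjusted p between 0.196 and 0.198. The 24 other snRNP proteins had a median of 0.40, the 15 genes of the spliceosome A complex and branch point 0.42, the 22 of the Prp19 complex and catalytic steps 0.34 and the 11 of snRNP assembly 0.57, while the 7 of the exon junction complex (-0.001) and the 5 SR protein kinases (-0.08) were near 0. Against B cells the 108 genes had a median of -0.78, with 5 at an unadjusted p under 0.05 (4.63%, against 22.7% of all genes). Between the single positives they had a median of -0.34, with 10 at an unadjusted p under 0.05 (9.26%, against 5.28% of all genes). Of these, 6 were regulators of alternative splicing with lower levels in CD11b single positives (25% of the 24, against 2.90% of all genes in that direction).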

How the data were processed

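RNA of sorted spleen cells (50 ng) was amplified by a whole-transcriptome method, and 400 ng of product was labelled with Cy3 and hybridised to 1-colour Agilent arrays, per the labels' protocols. The deposited scanner files hold the processed signal of each spot as intensity, made with Agilent Feature Extraction 10.7.1.1 per the submitters' processing notes, which also name Partek. The authors' deposited value table is on a log2 scale (Pearson r of 0.9938 to 0.9997 with the log2 signal of the same array, median 8.021 in each column). The sources used here do not state its centring or normalization, and it served as an alternative. Its differences were nearly those of quantile normalization. The median of all genes was -0.129 under both for CD27, and 0.178 and 0.175 against B cells. These 2 scalings therefore do not count as separate checks.

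Control spots and spots with outlier flags were left out, spots of a probe averaged, log2 taken and the 75th percentile of each array subtracted. Of 58659 probes 20417 (34.8%) were matched by accession without version to 12530 RefSeq genes, and each gene was read from its brightest probe on average. Genes well above background on at least 2 of 20 arrays (NK against B cells) or 4 of 18 NK arrays were tested with limma 3.58.1 in R 4.3.3 (lmFit, eBayes with trend and robust), with Benjamini-Hochberg adjustment over all genes and a threshold of 0.05. The fit was tested on simulated data. The rule for genes named singly took every gene past the threshold, otherwise the 5 of lowest p in each direction per NK comparison, the highest and lowest difference from B cells in each family, the U2AF genes and NONO; further genes at an unadjusted p under 0.05 or with separated groups were named after their values were seen. Members, lists and rule were chosen with earlier results of these data known. No mean spot signal was among the columns used, so the normexp alternative used median signals (offset 50). Other alternatives were quantile normalization, the filter, the probe rule, array weights, blocks for slide, replicate and animal label (origin, sex and age, with all arrays of replicate 3 as 1 label), single slides, and each array left out. No sequences were used.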

Additional observations from a re-analysis of the deposited data

Results flagged for a closer look

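The highest and lowest arrays of each NK subset were tested for standing apart from the rest, for 33 splicing factor genes, the 75th percentile of signal and the median of the 76 genes. Of these 140 groups of 4 or 5 arrays 14 had such an array. Chance alone gives about 1 in 20 groups. No explanation of these was tested.

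Among the SR proteins, SRSF9 stood at 2.86 on double-positive replicate 5, above the other double positives, and SRSF7 was low on CD27 single-positive replicate 1 (2.88) and on double-positive replicate 3 (1.65). HNRNPF was at -0.99 on double-low replicate 3, with the other double-low arrays between -0.09 and 0.07. SNRPB was high on double-low replicate 4 (1.48) and low on CD11b single-positive replicate 5 (-3.64). PRPF3 was at 2.38 on double-positive replicate 4, the dimmest array, and PRPF40B at 0.39 on double-low replicate 4, the next dimmest.

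Of the RBM genes, RBM17 was at -2.39 on CD27 single-positive replicate 4, RBM18 at -4.00 on CD11b single-positive replicate 3, and RBM24 at -4.24 on CD11b single-positive replicate 4. On double-positive replicate 5 RBM20 was at -7.92 and RBM43 at -3.25. RBM42 stood at 3.54 on CD27 single-positive replicate 3, above the other CD27 single positives.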

How the results depend on the processing

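Of 51 differences of single splicing factor genes, 28 kept direction and call under every alternative, 16 passed under some alternative and 8 changed sign under at least 1. The cause was not tested. NK minus B: SRSF11 was 0.076 with array weights, 0.51 with the replicate block and -0.38 to 0.037 with either B cell array left out; NONO was 0.005 with the slide block and U2AF1 0.12 with the animal label block. PRPF3 between the single positives was -0.31 on the second slide. For CD11b, HNRNPF was -0.20, RBM20 0.012 and PRPF40B 0.28 on the second slide and RBM27 0.068 on the first.

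Of all genes, 200 passed against B cells with the stricter filter, 600 with the slide block, 84 with the animal label block, 1924 on the second slide, and 5673 with array weights, which also called 18 splicing factor genes. The first slide holds no B cells, so no such fit was made there. Quantile normalization gave 89 higher and 163 lower genes, against 213 and 149. For CD27, 1 gene passed with normexp, 1 with the stricter filter, 3972 with array weights (17 splicing factors) and 1385 on the first slide (15 splicing factors, median 0.57; -0.003 on the second). Array weights gave 4 genes between the single positives, and 211 genes and 1 splicing factor for any difference, where normexp gave 3 and the stricter filter 1. For CD11b, where 2 genes passed, the counts were 1 with the median of probes, plain eBayes, the replicate block or without the 2 dimmest arrays, 5 with array weights, and 0 with the slide block, the animal label block or either slide alone.

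Leaving out 1 array gave 64 (either B cell array) to 719 (CD11b single-positive replicate 4) genes, 0 to 1 splicing factors and a median of -0.45 to -0.29 against B cells, 0 to 1 genes and -0.42 to -0.20 between the single positives, 0 to 1 genes and 0.16 to 0.45 for CD27, 1 to 4 genes and -0.07 to 0.08 for CD11b, and 0 to 1 genes for any difference. Same-numbered arrays correlated between -0.297 and 0.414 in their deviations. All pairs within replicate 1 (0.016 to 0.414) and within replicate 2 (0.261 to 0.353) were positive. The lowest value was that of replicate 4 of the CD11b single positives with replicate 4 of the double positives. The labels do not say which samples share an animal, and the main fits treated the arrays as independent. Their p-values therefore make no allowance for arrays that may share an animal. With the replicate block 421 genes passed against B cells and 0 splicing factor genes in any comparison. The simulated data held added differences of several sizes, for NK against B cells and for CD27, and the recovered genes were counted. That recovery is not reported here. The smallest difference that 2 B cell arrays and 4 or 5 arrays per NK subset can show was not derived from it.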
